A study of Mus musculus with 24 samples.

Results

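The genes described here are 8 transporters of the kidney proximal tubule, taken by symbol from the 37315 genes of the kidney count table: Slc34a1 and Slc34a3 for phosphate, Slc5a2, Slc5a1, Slc2a2 and Slc2a5 for sugars, and Slc5a8 and Slc5a12 for lactate and other monocarboxylates. All 8 had enough counts to be described in each kidney experiment. RNA-seq libraries were made from the left kidney of 1 adult female mouse labelled as a control for drug treatment, a 129S1/SvImJ x CAST/EiJ F1, whose parental alleles can be told apart at SNPs. Aliquots of this 1 RNA went into 3 experiments of 6 libraries each, namely NEBNext (100 ng), made with the NEBNext Ultra poly-A kit from 100 ng of total RNA, SMARTseq (10 ng) and SMARTseq (100 pg), both made with the SMARTseqv4 kit for small inputs. NEBNext and the SMARTseq groups differ in kit and in input at once, and these cannot be told apart. The libraries are technical replicates of the same RNA, so every p-value covers technical spread only. Separate libraries came from Abl.1 and Abl.2, 2 Abelson-transformed B-cell lines of the same F1 cross, each grown from 1 clone. Their sample titles also say control. Each line had 2 SMARTseq libraries made from 10 ng, and both Abl.2 libraries had a second sequencing run.

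The proximal tubule recovers most of the filtered glucose, phosphate and lactate through sodium-coupled carriers in its brush border. SGLT2 (Slc5a2) takes up the bulk of the glucose in the early tubule and SGLT1 (Slc5a1) the remainder further along, and GLUT2 (Slc2a2) lets it out on the blood side. GLUT5 (Slc2a5) carries fructose. NaPi-IIa (Slc34a1) is the main phosphate carrier of the rodent brush border, with NaPi-IIc (Slc34a3) beside it, and both are withdrawn from the membrane in response to parathyroid hormone and FGF23. SMCT1 (Slc5a8) and SMCT2 (Slc5a12) couple lactate to sodium with high and low affinity.

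Library totals lay between 6138693 and 6702351 allelic counts in the kidney and between 19213150 and 22410835 in the Abl lines. An allelic count is a read base at a SNP, so a gene with more SNPs collects more counts and levels cannot be compared between genes. Values are therefore given per gene, as CPM (allelic counts divided by the library total and scaled to 1000000) and as allelic imbalance (AI), the share of a gene's counts in the maternal column. Alleles carry the name of their deposited column, and whether that name gives the parent of origin was not checked. Of 6 other proximal tubule marker genes, 5 had counts in all 3 kidney experiments and Miox was listed at 0. The summed level of these markers ran from 6164 to 7459 CPM in the NEBNext libraries, from 3790 to 3858 CPM in SMARTseq (10 ng) and from 3938 to 4028 CPM in SMARTseq (100 pg). Lists of other nephron parts were also lower in SMARTseq (10 ng) than in NEBNext. Medians were 2396 against 4262 CPM for 3 thick ascending limb markers and 273 against 579 CPM for 3 of podocytes. For 3 markers of the distal convoluted tubule, of which Pvalb was listed at 0, they were 355 against 1142 CPM. A list of 5 collecting duct markers went the other way, from 1417 to 1538 CPM in NEBNext, from 2202 to 2310 CPM at 10 ng and from 2659 to 2851 CPM at 100 pg. All 3 experiments used the same RNA, and the part of these list shifts in the values below was not tested. NEBNext replicate 1 stood apart from the other NEBNext libraries in how far AI spread between pairs. The pairwise factor by which this spread exceeded binomial sampling was 2.03 to 2.15 for its 5 pairs and 1.67 to 1.80 for the other 10. Without it the same transporters were called for level and AI in both comparisons with NEBNext, and 1 more was called biased in NEBNext. A level in whole kidney RNA combines the number of cells of a type with the RNA per cell. All 3 experiments share both, being made from 1 RNA.

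On GRCm38, Slc34a1 (ENSMUSG00000021490) lies on chromosome 13 from 55398187 to 55415592 on the plus strand, with 13 merged exons in GENCODE vM21. Slc5a12 (ENSMUSG00000041644) lies on chromosome 2 from 110597298 to 110647779, plus strand, with 17 merged exons and no overlapping gene. Slc5a2 (ENSMUSG00000030781) lies on chromosome 7 from 128265657 to 128272430, plus strand, with 14. In that annotation, 545 exonic bases of Slc34a1 are shared with Pfn3 and 597 exonic bases of Slc5a2 with BC017158, both on the opposite strand. The exons of the other 6 transporters overlap no gene. The authors left out regions shared by genes, and no use of strand in the counting is given in the sources used here. Pfn3 had 34 to 142 counts per kidney library and BC017158 121 to 268, against at least 39702 for Slc34a1 and at least 2834 for Slc5a2.

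Slc34a1 had the most allelic counts of the 8, a number that also depends on its SNPs. Its 6 NEBNext libraries held 9668, 9765 and 10602 CPM (lowest, median and highest), those of SMARTseq (10 ng) 6206, 6256 and 6343 CPM, and those of SMARTseq (100 pg) 7206, 7402 and 7868 CPM. The 3 ranges did not overlap, with NEBNext highest and SMARTseq (10 ng) lowest. This and the ranges below are on library totals. On that scale the median log2 fold change of all genes against NEBNext was -0.40 at 10 ng and -0.39 at 100 pg. The share of all genes with separate CPM ranges was not counted, so separate ranges do not set these transporters apart. Slc34a3, the second phosphate carrier, had 66.8, 78.4 and 84.1 CPM in NEBNext, 44.1, 49.0 and 59.0 CPM at 10 ng and 50.4, 58.3 and 76.3 CPM at 100 pg. NEBNext lay above all 10 ng libraries, whereas the 100 pg range overlapped both others.

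Among the glucose carriers, Slc5a2 had 599, 633 and 647 CPM in NEBNext, 443, 447 and 463 CPM at 10 ng, and 461, 509 and 533 CPM at 100 pg. NEBNext was above both SMARTseq groups, which overlapped each other at their edge. Slc5a1 had 217, 228 and 247 CPM in NEBNext, 148, 158 and 171 CPM at 10 ng and 129, 146 and 157 CPM at 100 pg, again with NEBNext apart and the SMARTseq groups overlapping. Slc2a2, the exit carrier, fell apart into 3 separate ranges of 122 to 136 CPM in NEBNext, 105 to 114 CPM at 10 ng and 84.4 to 101 CPM at 100 pg. Slc2a5, the fructose carrier, also had 3 separate ranges, in another order. It had 83.3, 90.9 and 95.1 CPM in NEBNext, 34.4, 40.6 and 44.8 CPM at 10 ng, and 47.3, 53.7 and 56.3 CPM at 100 pg.

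The lactate carriers differed from each other. Slc5a12 had 471, 499 and 514 CPM in NEBNext and 485, 496 and 530 CPM at 10 ng, so these ranges overlapped, and 404, 430 and 468 CPM at 100 pg, below both. Slc5a8 had 71.0, 77.8 and 93.1 CPM in NEBNext, 61.8, 64.5 and 67.4 CPM at 10 ng and 53.4, 57.9 and 63.0 CPM at 100 pg, and only the SMARTseq groups overlapped. Over the 6 libraries the coefficient of variation of CPM was 0.917% for Slc34a1 and 1.74% for Slc5a2 at 10 ng, and reached 14.5% for Slc34a3 at 100 pg. The median of this value over all genes averaging 50 counts or more was 11.5% in NEBNext, 8.77% at 10 ng and 15.2% at 100 pg.

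**Figure D1:**
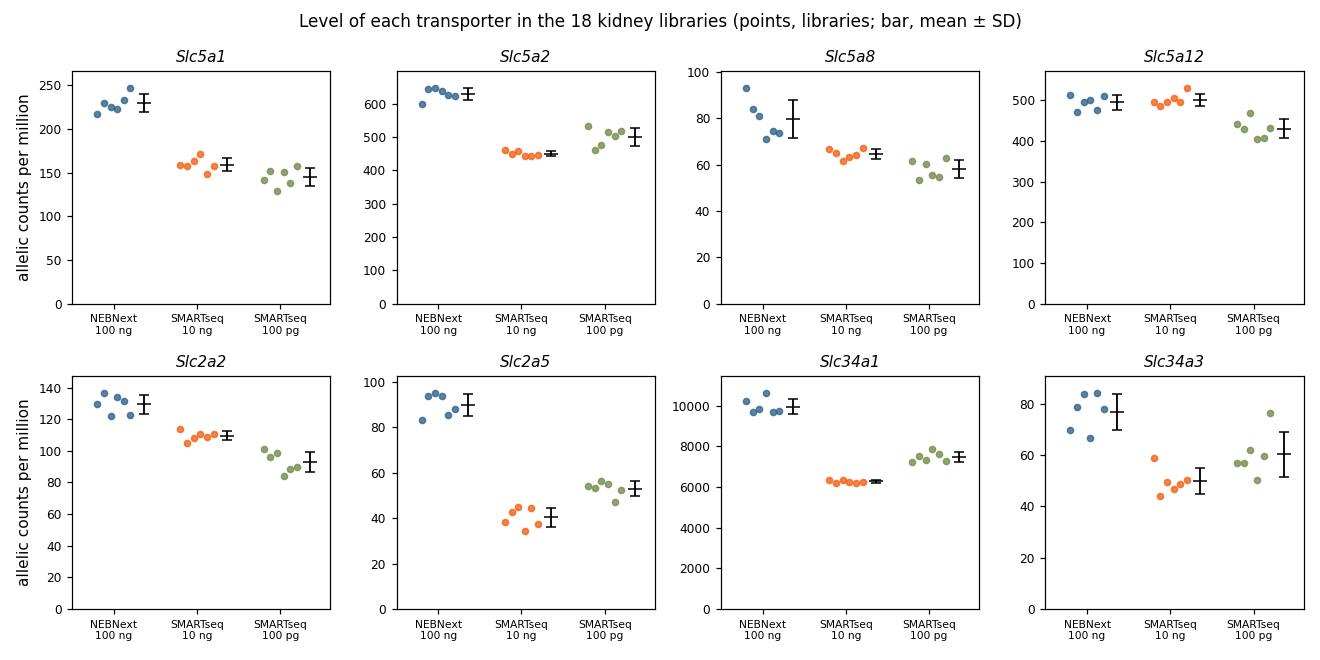
Level of each transporter (vertical axis, CPM, allelic counts scaled by the library total) in the 6 libraries of each experiment, with the mean and SD beside the points. Slc34a1 runs from 6206 to 10602 CPM with 3 separate ranges, and Slc5a12 is the transporter whose NEBNext and SMARTseq (10 ng) libraries overlap. On this scale the median log2 fold change of all genes against NEBNext is -0.40 at 10 ng and -0.39 at 100 pg.

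Which differences hold depends on the scaling. Differences in level were tested with edgeR on TMM-scaled totals, where a positive log2 fold change means a higher level in the group named first. On library totals without TMM the median log2 fold change of all genes was -0.40 for SMARTseq (10 ng) against NEBNext and -0.39 for SMARTseq (100 pg) against NEBNext, and with TMM it was -0.04 in both, so the folds below are relative to the bulk of genes.

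Between SMARTseq (10 ng) and NEBNext, 7 of 8 transporters were called at an adjusted p under 0.05, 5 lower and 2 higher in SMARTseq. Of all 11995 genes tested 77.5% were called, 38.1% higher and 39.4% lower, so the share of transporters called was near the background. On library totals the split of calls over all genes was 3383 higher to 6322 lower, against 4568 to 4732 with TMM. The fructose carrier Slc2a5 fell most, by 0.79 ± 0.07 (SE) on the log2 scale (edgeR, adjusted p = 1.50e-10). Both phosphate carriers fell, Slc34a1 by 0.31 ± 0.02 and Slc34a3 by 0.26 ± 0.08, and so did Slc5a1 by 0.16 ± 0.04 and Slc5a2 by 0.12 ± 0.03. Those 5 were also called lower on library totals. Slc5a12 was higher by 0.38 ± 0.03 (adjusted p = 5.13e-11) and Slc2a2 by 0.12 ± 0.05 (adjusted p = 0.0254). On library totals Slc5a12 had a log2 fold change of 0.02 that was not called and Slc2a2 was called lower at -0.24. Leaving out NEBNext replicate 3 or 6 also ended the call of Slc2a2 (edgeR, adjusted p = 0.0565 and 0.0604). Slc5a8 was not called with TMM, at 0.06 ± 0.07, and was called lower on totals, at -0.30. The median absolute log2 fold change was 0.21 over the 8 transporters and 0.76 over all genes.

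Between SMARTseq (100 pg) and NEBNext, 3 of 8 were called, against 69.5% of 12040 genes (34.7% higher and 34.8% lower). Slc2a5 fell by 0.41 ± 0.07 and Slc5a1 by 0.31 ± 0.06 on the log2 scale (edgeR, adjusted p = 6.04e-05 and 5.27e-05), and Slc5a12 was higher by 0.15 ± 0.04 (adjusted p = 0.00520). On library totals all 8 were called lower, Slc5a12 included at -0.20. The split of calls over all genes was then 3112 higher to 5766 lower, against 4174 to 4188 with TMM. Slc34a1, at -0.06 ± 0.03, lay just outside the threshold (edgeR, adjusted p = 0.0668). Its adjusted p ranged from 0.0239 to 0.167 when 1 library was left out, and it was called without NEBNext replicate 2, 5 or 6 or without SMARTseq (100 pg) replicate 4 or 5. Slc2a2 had a log2 fold change of -0.12 ± 0.06, Slc5a8 of -0.10 ± 0.09, Slc5a2 of 0.02 ± 0.04 and Slc34a3 of 0.01 ± 0.10, none of them called.

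Between the SMARTseq inputs, 100 pg against 10 ng, 5 of 8 transporters were called, 3 higher and 2 lower, against 15.8% of 11722 genes (8.8% higher and 7.02% lower). Genes entered the tests of level from a mean of 10 counts, whereas the transporters had at least 220 per library, so these shares are not matched for counts. Slc2a5 was higher at 100 pg by 0.39 ± 0.08, Slc34a1 by 0.25 ± 0.02 (edgeR, adjusted p = 1.12e-08) and Slc5a2 by 0.15 ± 0.03. Slc2a2 fell by 0.24 ± 0.05 and Slc5a12 by 0.23 ± 0.03. These directions and calls were the same on library totals, where the all-gene median was 0.00. Slc34a3 had 0.27 ± 0.10 and missed the threshold (edgeR, adjusted p = 0.0624), which it passed without SMARTseq (100 pg) replicate 4 or SMARTseq (10 ng) replicate 1 (adjusted p = 0.0255 and 0.0344) and with DESeq2 (adjusted p = 0.0328). Slc5a1 and Slc5a8 had -0.14 ± 0.05 and -0.16 ± 0.06, not called, and Slc5a1 was called without SMARTseq (100 pg) replicate 6 (adjusted p = 0.0346). With TMM no transporter reached a log2 fold change of 1 in either direction in these 3 comparisons, and on library totals Slc2a5 did, at -1.15 for SMARTseq (10 ng) against NEBNext.

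**Figure D2:**
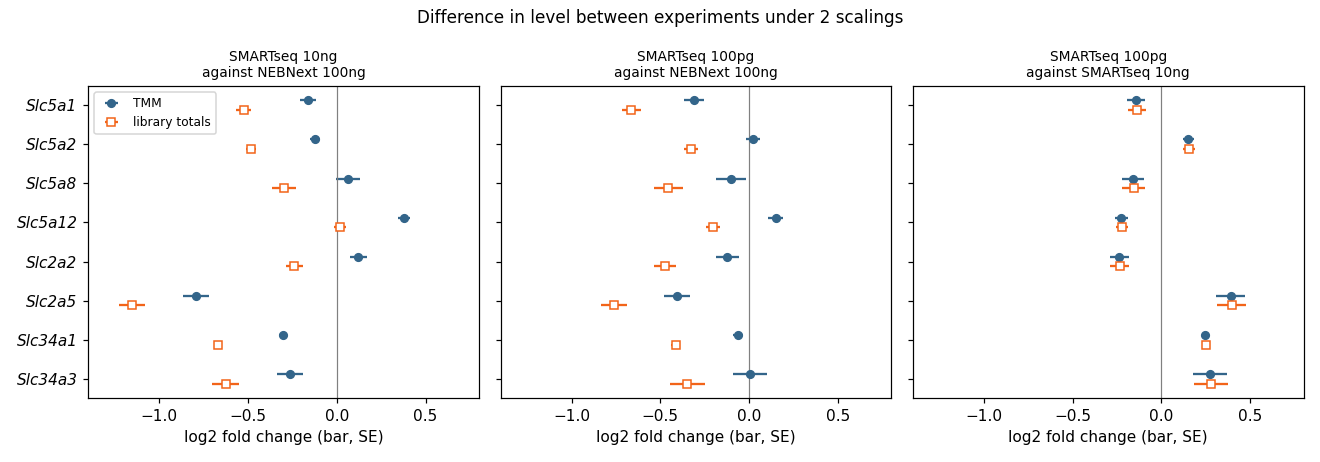
Log2 fold change of each transporter (horizontal axis, bars for the SE) in the 3 comparisons, with TMM scaling (filled circles) and with library totals (open squares). Against NEBNext the open squares lie below the circles, so that Slc5a8 and Slc2a2 change side at 10 ng, and Slc5a2, Slc5a12 and Slc34a3 at 100 pg. Slc2a5 lies furthest left at -0.79 with TMM in the 10 ng comparison.

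Among the 8 transporters, the allelic share of Slc5a12, the low-affinity lactate carrier, moved most against NEBNext. Its AI was 0.445, 0.484 and 0.506 (lowest, median and highest of 6 libraries) in NEBNext, 0.668, 0.710 and 0.719 in SMARTseq (10 ng) and 0.616, 0.654 and 0.715 in SMARTseq (100 pg). Every SMARTseq library lay above every NEBNext library, and the SMARTseq groups overlapped. The log2 odds ratio of the maternal share against NEBNext was 1.36 ± 0.06 (SE) at 10 ng (edgeR, adjusted p = 2.71e-16) and 1.09 ± 0.10 at 100 pg (adjusted p = 4.20e-07). On library totals the allele columns differed in opposite directions while their sum was nearly level. From NEBNext to SMARTseq (10 ng) the maternal column went from 238 ± 7.59 to 353 ± 5.66 CPM (SD, n = 6), a ratio of 1.48, and the paternal column from 257 ± 18 to 148 ± 14 CPM, a ratio of 0.577, while the ratio of their sums was 1.01. With TMM the level of Slc5a12 was instead called higher at 10 ng (log2 fold change 0.38), so the ratio of each column rests on the scaling and AI does not. At 100 pg the maternal column had 285 ± 10.6 CPM and the paternal column 146 ± 22.9 CPM.

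Slc5a2, the main glucose carrier, shifted the other way. Its AI was 0.481, 0.491 and 0.511 in NEBNext, 0.414, 0.450 and 0.464 at 10 ng and 0.388, 0.412 and 0.474 at 100 pg. All SMARTseq libraries were below all NEBNext libraries. The log2 odds ratio was -0.27 ± 0.05 at 10 ng (edgeR, adjusted p = 0.000296) and -0.43 ± 0.07 at 100 pg (adjusted p = 0.000564). With limma on logit AI the adjusted p at 10 ng was 0.0585. On library totals the maternal column of Slc5a2 at 10 ng was 0.646 times its NEBNext level and the paternal column 0.782 times.

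Slc34a1, the main phosphate carrier, had an AI of 0.542, 0.549 and 0.561 in NEBNext, 0.523, 0.526 and 0.528 at 10 ng and 0.514, 0.522 and 0.529 at 100 pg. The NEBNext range lay above both SMARTseq ranges, which overlapped. The log2 odds ratio was -0.14 ± 0.02 at 10 ng (edgeR, adjusted p = 1.07e-06) and -0.16 ± 0.02 at 100 pg (adjusted p = 5.10e-05), a small shift measured on at least 39702 counts per library. It was not called with limma on logit AI (adjusted p = 0.259 and 0.347).

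In all, 3 of 8 transporters were called for AI in each comparison with NEBNext, against 10.6% of 10127 genes for SMARTseq (10 ng) and 6.24% of 9733 genes for SMARTseq (100 pg). The same 3 were those whose AI ranges did not overlap in each comparison, against 6.32% and 4.89% of these genes. Both comparisons share the NEBNext libraries. The median absolute log2 odds ratio was 0.21 over the 8 transporters and 0.21 over all genes at 10 ng, and 0.16 and 0.25 at 100 pg. Genes entered these tests from 10 counts per library, whereas the transporters had at least 220. Between the SMARTseq inputs edgeR called none of the 8, against 0.659% of 10020 genes, and DESeq2, limma and the QCC-corrected proportional test also called none. The 1 transporter with an unadjusted p under 0.05 was Slc5a12 (edgeR, adjusted p = 0.383). Its mean AI was 0.663 ± 0.0384 at 100 pg and 0.704 ± 0.0188 at 10 ng (SD, n = 6). No transporter had AI ranges apart there, against 1.16% of all genes tested.

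For the other 5, no difference in AI was called and the ranges of the groups overlapped. Slc2a2 had an AI of 0.638 ± 0.0288 in NEBNext, 0.603 ± 0.0303 at 10 ng and 0.613 ± 0.0393 at 100 pg (SD, n = 6). Slc2a5 had 0.637 ± 0.0188, 0.601 ± 0.0293 and 0.625 ± 0.0429 in the same order. For Slc5a8 the means were 0.577 ± 0.0510, 0.613 ± 0.0347 and 0.626 ± 0.0412. These 3 leaned to the maternal column in all 3 experiments, and the lowest library among them was NEBNext replicate 1 for Slc5a8, at 0.482. Slc34a3 had means on the paternal side, 0.435 ± 0.0547, 0.462 ± 0.0452 and 0.460 ± 0.0259. Slc5a1 stayed near an even share in the mean, with 0.507 ± 0.0302, 0.520 ± 0.0112 and 0.490 ± 0.0723. Its 6 libraries at 100 pg ran from 0.399 to 0.570.

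**Figure D3:**
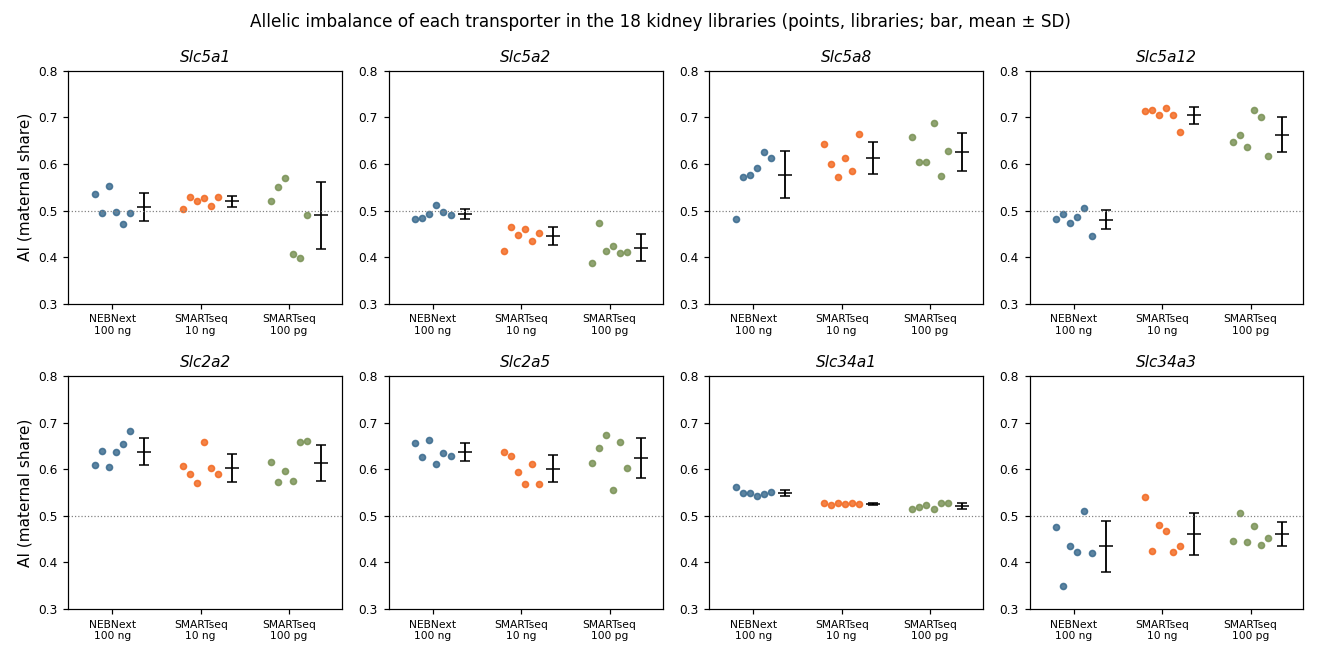
AI of each transporter (vertical axis, share of counts in the maternal column, dotted line at 0.5) in the 6 libraries of each experiment, with the mean and SD. The NEBNext libraries of Slc5a12 (0.445 to 0.506) lie below all its SMARTseq libraries (0.616 to 0.719), and Slc5a1 at 100 pg scatters on both sides of 0.5.

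**Figure D4:**
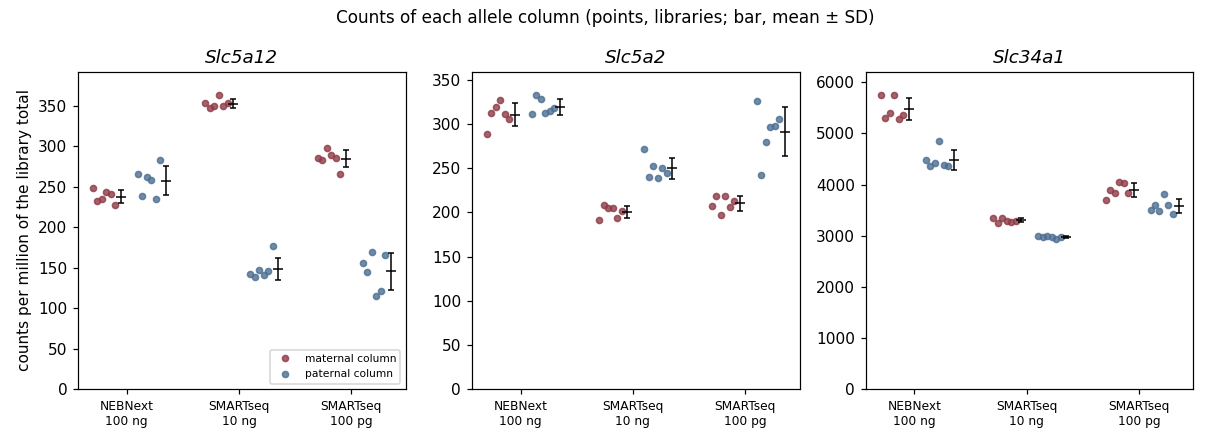
Level (vertical axis, CPM on library totals) in the maternal and paternal columns of Slc5a12, Slc5a2 and Slc34a1, by library, with mean and SD. For Slc5a12 the maternal column goes from 238 to 353 CPM from NEBNext to SMARTseq (10 ng) and the paternal column from 257 to 148 CPM. On this scale all SMARTseq libraries lie below all NEBNext libraries in both columns of Slc34a1 and in the maternal column of Slc5a2, while the paternal column of Slc5a2 overlaps between NEBNext (311 to 332 CPM) and SMARTseq (100 pg) (243 to 326 CPM).

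Each experiment was also asked on its own whether AI differed from 0.5. Over all genes the maternal column held 46.6% to 46.8% of the counts in the NEBNext libraries. It held 48.0% to 48.1% at 10 ng and 48.1% to 48.3% at 100 pg. Pooled counts were corrected by the quality correction coefficient (QCC), the factor by which replicate libraries spread beyond binomial sampling, whose mean over 15 pairs was 1.85 in NEBNext, 1.47 at 10 ng and 2.59 at 100 pg. The proportional test with Bonferroni correction called 3 of 8 transporters biased in NEBNext, against 18.4% of all genes tested, 6 of 8 at 10 ng (24.4%) and 5 of 8 at 100 pg (14.3%). Genes entered this test from 10 counts per library, whereas the transporters had at least 220, so these shares are not matched for counts. Slc2a2 and Slc34a1 were called towards the maternal column in all 3 experiments. Slc2a2 had a pooled AI of 0.637 (QCC-corrected 95% interval 0.612 to 0.662) in NEBNext, 0.604 (0.582 to 0.625) at 10 ng and 0.613 (0.571 to 0.653) at 100 pg. Slc34a1 had 0.550 (0.547 to 0.553), 0.526 (0.523 to 0.529) and 0.521 (0.517 to 0.526). QCC is 1 value per experiment, so these tests and intervals do not use a gene's own spread between libraries. Where that spread exceeds QCC the interval can be too narrow. It was 3.29 times the binomial SD for Slc34a1 in NEBNext and 4.32 times for Slc5a12 at 100 pg. For other transporters it was below QCC, such as 0.935 for Slc2a5 in NEBNext.

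The call for Slc5a12 and Slc5a2 went with the experiment. Slc5a12 had a pooled AI of 0.480 (0.467 to 0.494) in NEBNext, not called after Bonferroni correction, and was called towards the maternal column at 10 ng with 0.704 (0.694 to 0.713) and at 100 pg with 0.662 (0.643 to 0.680). Slc5a2 had 0.493 (0.481 to 0.505) in NEBNext and was called towards the paternal column at 0.445 (0.435 to 0.456) and 0.419 (0.401 to 0.437). Slc5a8 was called at 10 ng and 100 pg and not in NEBNext, where its pooled AI was 0.572 (0.539 to 0.604), but without NEBNext replicate 1, the library with the widest pairs, it was called there too, at 4 of 8 transporters and 1934 genes in all against 2002. At 100 pg its call was lost without replicate 1, 2, 3, 4 or 6, and that of Slc2a2 without replicate 5 or 6. Slc2a5 was called in NEBNext and at 10 ng, and at 100 pg it had 0.624 (0.570 to 0.676) and was not called. Slc5a1 and Slc34a3 were called in none of the 3 experiments, and the pooled AI of Slc34a3 lay between 0.436 and 0.465. These counts changed with the correction. With Benjamini-Hochberg adjustment in place of Bonferroni, 6 of 8 were called in each experiment, Slc5a8, Slc5a12 and Slc34a3 being added in NEBNext.

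The spread of AI over libraries was compared with binomial sampling at the counts of each library. In NEBNext the SD was 3.29 times the binomial SD for Slc34a1 and 0.935 times for Slc2a5, the extremes of the 8, with a median of 1.67 over 8972 genes. In SMARTseq (10 ng) the range was from 0.717 for Slc5a1 to 2.33 for Slc5a12, with an all-gene median of 1.32. In SMARTseq (100 pg) it was from 1.03 for Slc34a3 to 4.46 for Slc5a1, with an all-gene median of 2.26. Slc5a1 was thus the tightest of the 8 at 10 ng and the widest at 100 pg, on 949 to 1095 and 851 to 1041 counts per library. Of the 8 transporters, 6, 5 and 4 lay above the all-gene median in NEBNext, SMARTseq (10 ng) and SMARTseq (100 pg).

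**Figure D5:**
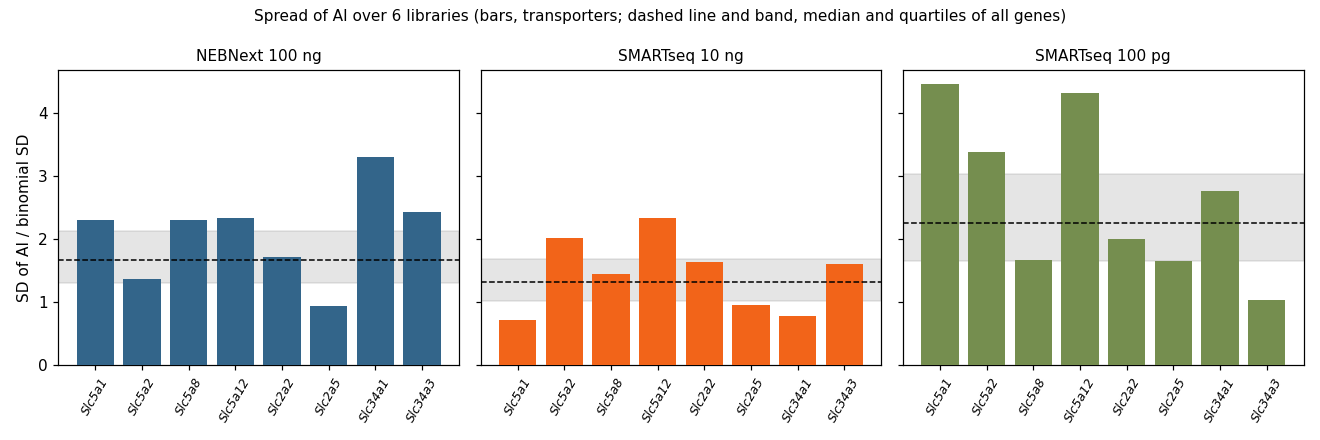
SD of AI over 6 libraries divided by the SD that binomial sampling gives (vertical axis), for each transporter and experiment. The dashed line and band show the median and quartiles of all genes, with medians of 1.67, 1.32 and 2.26, and Slc5a1 goes from 0.717 at 10 ng to 4.46 at 100 pg.

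Genes that work with the transporters were read from 4 lists of 43 genes in all. Of 9 tested relatives (14 listed) among the sugar transporters, 8 were lower at 10 ng than in NEBNext and 6 at 100 pg, and none was higher, with a median log2 fold change of -0.63 and -0.44 against -0.04 for all genes. Of all genes 39.4% and 34.8% were called lower in these comparisons. The largest were Slc2a10, which fell by 1.69 on the log2 scale at 10 ng, on 155 pooled counts in NEBNext and 37 at 10 ng, and Slc2a13, the myo-inositol carrier HMIT, which fell by 1.05 at 10 ng and 1.24 at 100 pg. Slc2a9, the urate carrier, fell by 0.96 at 100 pg. It was the 1 relative called for AI, with 0.385 ± 0.0926 in NEBNext, 0.188 ± 0.0433 at 10 ng and 0.196 ± 0.0706 at 100 pg (SD, n = 6).

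Of 10 genes of phosphate transport and hormone response, 8 were lower and 1 higher in each SMARTseq group against NEBNext, where 39.4% of all genes were called lower and 38.1% higher at 10 ng, and 34.8% and 34.7% at 100 pg. On library totals 9 were lower and 0 higher at 10 ng, and 8 and 0 at 100 pg. Kl, which encodes the FGF23 co-receptor Klotho, fell by 1.31 at 10 ng and 1.40 at 100 pg on the log2 scale. Pth1r, the parathyroid hormone receptor, fell by 1.23 at 10 ng, and Slc20a2, the phosphate carrier PiT-2, by 1.19 at 100 pg. Kl was also called for AI, with 0.593 ± 0.00695 in NEBNext, 0.461 ± 0.0128 at 10 ng and 0.505 ± 0.0412 at 100 pg (SD, n = 6). Vdr, the vitamin D receptor, had 0.507 ± 0.0334, 0.562 ± 0.0420 and 0.590 ± 0.0379 and was called in both. Cyp24a1, which inactivates vitamin D, was called at 100 pg alone of the comparisons with NEBNext, and its counts were nearly all in the paternal column (pooled AI 0.0215 in NEBNext and 0.00281 at 100 pg). The AI of its libraries ran from 0.00932 to 0.0306 in NEBNext and from 0 to 0.0155 at 100 pg. With 6406 and 3920 pooled counts, that call rests on few counts in the maternal column.

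Of 8 tested scaffold, accessory and transcription factor genes all 8 were called against NEBNext in both SMARTseq groups, 6 lower and 2 higher, where 77.5% and 69.5% of all genes were called. Slc9a3, the sodium-proton exchanger NHE3, fell by 2.96 at 10 ng and 2.97 at 100 pg. Pdzk1ip1, which encodes the SGLT2 partner MAP17, rose by 1.79 at 100 pg. For AI, Hnf4a was called in both comparisons (0.492 ± 0.0129, 0.514 ± 0.0131 and 0.532 ± 0.0275 in the 3 experiments) and Pdzk1ip1 at 10 ng (0.539 ± 0.00941 in NEBNext and 0.520 ± 0.00721). Among 9 tested genes of sugar and lactate metabolism, 6 were higher and 3 lower in both SMARTseq groups, so that all 9 were called against the same shares of all genes. Pcx, the mitochondrial pyruvate carboxylase, fell by 3.02 at 10 ng and fell by 2.45 at 100 pg, Tkfc, which handles triose from fructose, fell by 2.24 at 100 pg, and Fbp1, an enzyme of gluconeogenesis, rose by 1.88 at 10 ng. For AI, Tkfc went from 0.475 ± 0.0151 in NEBNext to 0.660 ± 0.0212 and 0.694 ± 0.0331. Pck1 went from 0.494 ± 0.00719 to 0.529 ± 0.0231 and 0.532 ± 0.0113, and Ldhb from 0.592 ± 0.00620 to 0.572 ± 0.00265 and 0.568 ± 0.00536. On library totals G6pc changed sign in both comparisons with NEBNext and was not called, no other list gene changed sign, and no gene of the first 2 lists was called higher.

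Between the SMARTseq inputs, the 4 lists held 2 of 9, 2 of 10, 7 of 8 and 7 of 9 genes called for level, against 15.8% of all genes. Outside the scaffold and transcription factor list, the largest were Slc2a10 at 1.96 and Slc5a11 at 0.30, Pth1r at 0.39 and Vdr at 0.21, and Tkfc at -0.73 and Pck1 at 0.64, as log2 fold changes of 100 pg against 10 ng. The value of Slc2a10 rests on 37 pooled counts at 10 ng and 152 at 100 pg, where its libraries ran from 1.21 to 9.68 CPM. None of the list genes was called for AI there by edgeR, and 1, 2, 1 and 2 of them had an unadjusted p under 0.05.

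The gene whose centred log2 CPM over the 18 kidney libraries lay nearest was named for each transporter, among 8750 others. For Slc34a1 it was Slc22a8, at a Euclidean distance of 0.211 against a median distance of 1.95, and for Slc2a5 it was Slc22a6, at 0.470 against 2.22. Both encode organic anion carriers, OAT3 and OAT1. The nearest to Slc5a12 was Atp6v1a, a subunit of the vacuolar proton pump (0.290), and to Slc5a1 it was Glul, glutamine synthetase (0.336). For the others these were 4833439L19Rik for Slc5a2 (0.230), Prss8 for Slc2a2 (0.263), Errfi1 for Slc5a8 (0.315) and Klf13 for Slc34a3 (0.608). Distances are over libraries of 1 RNA and describe how genes differ between kits and inputs.

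In the B-cell lines, 6 of 8 transporters had no count in any of the 6 runs (Slc5a1, Slc5a8, Slc5a12, Slc2a2, Slc2a5 and Slc34a3), which allows at most 0.134 to 0.156 CPM per run at 3 counts. Slc5a2 had from 0 to 5 counts per run. Slc34a1 had no count in either Abl.1 library and 121 and 29 counts in Abl.2 replicates 1 and 2 (5.67 and 1.31 CPM). Their second runs held 66 and 79 counts (2.95 and 3.55 CPM). The AI of these 4 runs was 0.438 (95% Wilson interval 0.353 to 0.527), 0.793 (0.616 to 0.902), 0.606 (0.485 to 0.715) and 0.316 (0.224 to 0.425), so the second run of replicate 1 lay above the interval of its first and that of replicate 2 below. The intervals of the 2 runs overlapped for replicate 1 and not for replicate 2. Intervals and floors cover counting error only and take each count as independent. The paper states that this does not hold for SNPs on 1 read or read pair, so the intervals can be too narrow. Of 6 other proximal tubule markers, Gatm, Lrp2, Miox and Slc22a6 were listed at 0 in all Abl runs. Miox was also at 0 in the kidney libraries, so its 0 here does not separate the tissues. The remaining Cubn and Slc22a8 had counts in Abl.1, where the list summed to between 12.02 and 28.50 CPM. In the Abl.2 runs this sum was at most 2.797 CPM. The 5 B-lineage markers summed to between 4888 and 6784 CPM over all Abl runs.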

How the data were processed

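Allelic counts of 24 samples were taken from the deposited tables. The authors aligned reads with STAR (2.5.4a in the submitters' processing notes) to 129S1 and Cast/Ei pseudogenomes of GRCm38, kept unique alignments, brought the libraries of an experiment to the same size, counted alleles at SNPs with samtools and summed them over merged exons, and the deposited counts are whole numbers without normalization. Deposited AI tables (pooled fractions and their confidence limits) were not used. Groups came from sample titles.

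Totals of both columns were tested with edgeR 4.0.16 (quasi-likelihood, TMM, a mean of at least 10 counts over 12 libraries). AI was tested with edgeR on both columns through the interaction of allele and experiment, each library having its own term, for genes with at least 10 counts in each library. Both used Benjamini-Hochberg adjustment over all genes at 0.05. Bias against 0.5 used a two-sided proportional test on pooled counts divided by the square of QCC, with Bonferroni correction. Alternatives were DESeq2 1.42.0, limma 3.58.1, other scalings, filters and adjustments, a replicate block and each library left out. Scripts ran under R 4.3.3 and Python 3.11.15 and were tested on simulated data.

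The numbers of replicates did not pair libraries: over 18 libraries, same-numbered libraries of different experiments correlated between -0.031 and 0.030 in their deviations from group means. No 2 libraries held the same values. The transporters and gene lists were chosen with earlier results of these data known. Named genes are the 8 transporters, genes of the lists called for AI, the 2 list genes with the largest called change in level per list and comparison, and the nearest gene by profile. Some list genes that this rule names are not reported here. AI was given at 50 pooled counts or more.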

Additional observations from a re-analysis of the deposited data

Results flagged for a closer look

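In SMARTseq (10 ng), replicate 6 had the lowest AI of Slc5a12, 0.668, while the other 5 libraries lay between 0.704 and 0.719, a gap large for the range of the group. It was the 1 such library in 48 groups of 6 libraries checked, fewer than the about 1 in 20 that chance alone gives.

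The AI of 3 transporters differed between experiments made from the same RNA, by the edgeR test of the difference itself. The log2 odds ratios of the maternal share at 10 ng against NEBNext were 1.36 for Slc5a12, -0.27 for Slc5a2 and -0.14 for Slc34a1. At 100 pg against NEBNext they were 1.09 for Slc5a12, -0.43 for Slc5a2 and -0.16 for Slc34a1.

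The Abl lines enter no comparison between groups, and 2 kidney carriers had counts there above the 3 that a count of 0 allows. Slc5a2 had 5 counts in Abl.1 replicate 2. Slc34a1 had 121 and 29 counts in Abl.2 replicates 1 and 2 and 66 and 79 in their second runs.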

How the results depend on the processing

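On library totals 8 transporters were called at 100 pg against NEBNext in place of 3, and the log2 fold changed sign for Slc5a8 (-0.30) and Slc2a2 (-0.24) at 10 ng and for Slc5a2 (-0.33), Slc5a12 (-0.20) and Slc34a3 (-0.35) at 100 pg. With a log2 fold change of at least 1 as a further condition 0 transporters were called in each of the 3 comparisons, by construction, since none was that large with TMM. At 100 pg against NEBNext, values near 0 turned without the low-count filter for Slc5a2 (-0.00596) and Slc34a3 (-0.0238). For AI, limma called 1 transporter (Slc5a12) at 10 ng against NEBNext, and with allele column totals the value of Slc5a1 turned (-0.00697). For bias in NEBNext, 6 were called without QCC, 6 with Benjamini-Hochberg adjustment and 5 with edgeR, in place of 3. With the group's maternal share in place of 0.5, Slc5a8 was also called in NEBNext (proportional test, adjusted p = 4.45e-06). Slc2a5 was then also called at 100 pg (proportional test, adjusted p = 0.00431). The cause was not tested.

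Leaving out 1 library gave 6 to 7, 3 to 4 and 5 to 6 transporters called for level and 3, 3 and 0 for AI, in the order of the comparisons, 3 to 4 and 6 called biased in NEBNext and at 10 ng, and 3 to 4 at 100 pg in place of 5, 3 without replicate 6. The count above the median spread, an alternative chosen after seeing the data, was 4 to 6, 3 to 5 (3 without replicate 1 or 6) and 3 to 4. Uncalled values turned for Slc34a3 in level (-0.0721 to 0.0548 at 100 pg against NEBNext) and AI (-0.0640 to 0.0832 between inputs), and for Slc2a5 (-0.133 to 0.0128) and Slc5a1 (-0.196 to 0.000579) in AI at 100 pg against NEBNext. The log2 odds of Slc5a1 against an even share ran from -0.00831 to 0.0831 in NEBNext and from -0.147 to 0.0335 at 100 pg.

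Replicate numbers are shared only as numbers. With the replicate block 7, 4 and 5 transporters were called for level, Slc34a1 being added at 100 pg against NEBNext (edgeR, adjusted p = 0.0414), and 3, 3 and 0 for AI. Slc34a3 there had -0.000541. No library correlated above 0.1 with its own number. Over all genes the AI calls between inputs went from 66 to 28 with the block, 102 with DESeq2, 26 with limma and 30 to 66 with 1 library left out. Against NEBNext they went from 1069 to 691 with limma and 431 with the proportional test at 10 ng, and from 607 to 286 with the latter at 100 pg. Genes called biased in NEBNext, at 10 ng and at 100 pg went from 2002, 2625 and 1453 to 3998, 4861 and 3036 with Benjamini-Hochberg adjustment, to 3758, 4726 and 2627 with edgeR, and without QCC to 3827 in NEBNext and 4104 at 100 pg. Depth limits the carriers with few counts: Slc2a5 had 220 to 286 counts per library at 10 ng.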
